A study of Mus musculus with 10 samples.

Results

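The single array of whole embryonic day 5.5 (E5.5) mouse embryo on the Affymetrix MOE430A chip was compared, gene by gene, with the 4 MOE430A arrays of dissected embryo fragments. Of the fragment arrays, 2 came from the anterior distal region (Ad) and 2 from the posterior proximal region (Pp), and array type and sample kind were taken from the labels. These are 5 of the 10 arrays of the series. Every sample was of the B6SJLF1×CerlP-GFP background, in which green fluorescent protein marks the anterior visceral endoderm, and none was treated. An Ad fragment held the fluorescent anterior visceral endoderm with the epiblast beneath it. A Pp fragment was a wedge of proximal visceral endoderm and epiblast from the opposite side, cut just below the border with the extraembryonic region. The labels do not say which layers were kept on the whole embryo, and they do not say whether the arrays of a kind came from separate embryos, so each p-value reflects the spread between these arrays alone, which may be technical. RNA was linearly amplified before hybridisation. The series used the whole embryo for normalisation, and the question asked here is which tissues outside the fragments that sample holds.

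At this stage the mouse conceptus is an egg cylinder. Its lower part is a cup of epiblast, which forms the embryo, covered by visceral endoderm, an absorptive layer that secretes plasma proteins such as alpha-fetoprotein and transthyretin. Above lie the extraembryonic ectoderm and the ectoplacental cone, both trophoblast, and around the whole runs the parietal endoderm, which lays down a thick basement membrane. The conceptus is embedded in the decidua, the uterine stroma of the mother that is remodelled at implantation under progesterone and makes its own members of the prolactin family.

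The values are intensities of probe sets, in arbitrary units. The array medians lay between 591 and 645. The signal ratio of the 3' to the 5' control probe sets was 5.87 for Actb on the whole-embryo array against 3.69 to 4.50 on the fragments, and for Gapdh it was 1.60 against 1.40 to 1.57. This ratio, a measure of RNA integrity and amplification, moved with the comparison, and its part in the results was not tested. Only probe sets whose log2 value, averaged over the 5 arrays, exceeded the 40th percentile were kept, a filter that corresponds to a signal of 464. This left 13575 probe sets, which represent 8708 genes when each is read from its brightest probe set. Differences are whole embryo minus the mean of the Ad and Pp group means, on the log2 scale after a pseudocount of 247 was added and each array was centred. They were tested with limma, and a call means a Benjamini-Hochberg adjusted p under 0.05 over all kept probe sets. With 1 whole-embryo array the test assumes that it varies like the fragments. In a fit that leaves out a fragment array, its kind keeps 1 array, so the spread comes from the pair of the other kind alone. The exact permutation test of 1 array against 4 could not reach a p below 0.2.

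More genes were called higher than lower in the whole embryo, and differences of at least 2-fold were mostly increases. Of 8708 genes, 496 were called higher in the whole embryo (5.7%) and 395 lower (4.54%), from 704 probe sets higher (5.19%) and 624 lower (4.6%). With no centring the split was 966 probe sets higher and 338 lower, and with cyclic loess 791 and 343. At an unadjusted p under 0.05 there were 3702 probe sets. With no filter, 4.79% of 12393 genes were called higher and 2.4% lower. Among the genes called, 126 were at least 2-fold higher and 26 at least 4-fold higher, while 8 were at least 2-fold lower and 0 at least 4-fold lower. Of the 496 called higher, 48 had a fragment mean below the filter signal and passed through the whole embryo. The largest difference was 3.66 upward and -1.28 downward, and the median was 0.64 over the genes called higher and -0.49 over those called lower. Without a test, the whole embryo lay at least 2-fold above every fragment for 148 genes (1.7%). The reverse, every fragment at least 2-fold above the whole embryo, held for 1 gene (0.0115%), Ubxn8, at 1153 to 1309 in the fragments against 569 in the whole embryo. Taken against each kind of fragment alone, 448 genes were higher in the whole embryo than in Ad (5.14%) and 384 were higher than in Pp (4.41%), with 325 called in both, which share the whole-embryo array. Lower than in Ad were 337 (3.87%), and lower than in Pp 186 (2.14%).

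**Figure D1:**
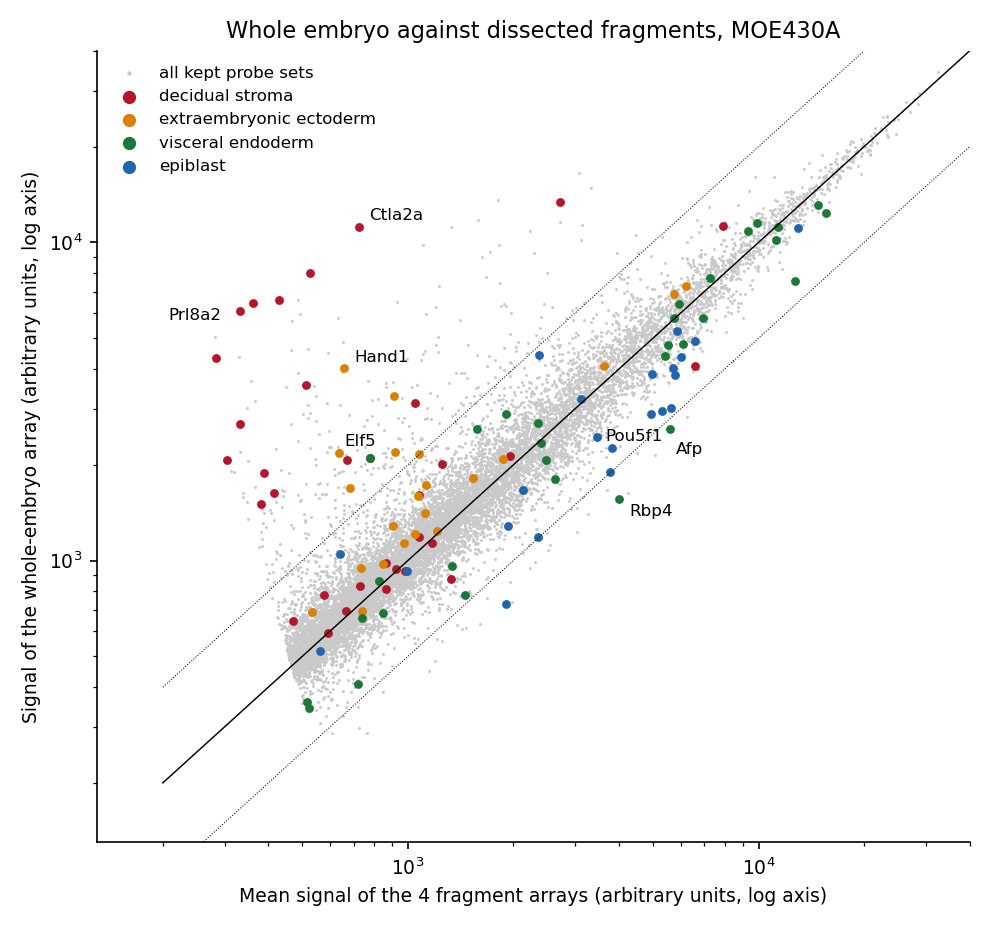
Signal of the whole-embryo array (vertical, log axis) against the mean signal of the 4 fragment arrays (horizontal, log axis) for the 13575 kept probe sets (grey) and for the kept genes of 4 tissue lists (coloured). The solid line marks equal signal and the dotted lines a 2-fold difference. Genes of the decidual stroma list such as Ctla2a and Prl8a2 lie far above the line, and most epiblast and visceral endoderm genes lie at or below it, with Afp and Rbp4 beyond 2-fold.

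Genes of the decidua and its stroma led the increases. The 15 genes with the largest increase were Ctla2a, Tac2, S100a6, Prl8a2, Rgs2, Igfbp3, Col1a1, Gsn, Drd4, Ahnak, Aoc1, Mgp, Dmkn, Serpinb6b and Bmp2, and 7 of them stand in the decidual stroma list. Ctla2a, a cysteine protease inhibitor abundant in decidua, had a signal of 275 and 1646 in the Ad arrays, 482 and 497 in the Pp arrays and 11198 in the whole embryo. It was 12.7-fold higher in the whole embryo (log2 difference 3.66, standard error 0.62, limma adjusted p = 0.0233). Tac2, which encodes the neurokinin B precursor, read 256 and 945 in Ad, 539 and 368 in Pp and 7987 in the whole embryo, a 10.6-fold difference (adjusted p = 0.0105). The second Ad array gave the highest fragment value for both genes, and no fragment came near the whole embryo. Rgs2, a brake on G protein signalling, read 318 to 495 in the fragments against 6578 in the whole embryo (adjusted p = 0.000511). S100a6, a calcium-binding protein, read 220 to 493 and 6450. The insulin-like growth factor binding protein Igfbp3 was at 210 to 372 in the fragments against 4325 in the whole embryo (adjusted p = 0.000644). For these 3 genes the fragment mean lies below the filter signal, so the levels are given without a fold.

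The other genes of that group encode matrix, cytoskeletal and signalling proteins. Gsn, the actin-severing protein gelsolin, read 545 to 734 in the fragments against 5771 in the whole embryo, 6.50-fold higher (limma adjusted p = 0.000693). Aoc1, the diamine oxidase that breaks down histamine, read 880.3 to 1004 and 6513, a 5.43-fold difference (adjusted p = 0.00027). Matrix Gla protein, Mgp, was 5.38-fold higher, with 588 to 711 in the fragments against 4854 in the whole embryo. The 4 fragments of these 3 genes lay close together and far below the whole embryo. Ahnak, a large scaffold protein, read 297 to 424 against 3671, and Serpinb6b, a protease inhibitor, 302 to 441 against 3177. The other kept Ahnak probe set disagreed, at 499.5 to 543 in the fragments against 514 in the whole embryo (-0.08, no call). Dmkn, dermokine, was 5.34-fold higher (416 to 550.3 against 3876). The probe set annotated to the dopamine receptor Drd4 read 438 to 496 against 4576. It is of a design that can match more than 1 transcript, so its gene is uncertain. Bmp2, which the stroma makes at implantation, read 566 and 424 in Ad, 156 and 182 in Pp and 2677 in the whole embryo, and its Ad minus Pp difference of 0.76 was not called (adjusted p = 0.0994). All 15 genes kept their call when any fragment array was left out and under every other setting that gave them a value.

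Of 40 genes listed for decidual stroma, 37 were on the array and 33 passed the filter. In this list 16 were called higher in the whole embryo and 1 lower, against 5.7% and 4.54% of all genes. Their median difference was 0.52, beside -0.04 over all 8708 genes. It moved to between 0.82 and 1.13 when any 1 fragment array was left out. Without the filter, 18 of the 37 lay at least 2-fold above every fragment, against 1.68% of all genes on the array. Of the kept members, 9 had a fragment mean below the filter signal and passed through the whole embryo. The summed signal of the 37 genes was 35587 to 44276 in the fragments against 115069 in the whole embryo. In RNA from a mixture of tissues, fewer cells of a type and less RNA per cell cannot be told apart. Without Ad replicate 1 or Ad replicate 2, 15 of the 17 calls were kept, and Gja1 and Ptgis were lost both times.

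Signalling and transcription factors of the decidual response stood well above the fragments. Wnt4, a ligand needed for decidualisation, read 269.7 and 312 in Ad, 352 and 286 in Pp and 2069 in the whole embryo (limma adjusted p = 0.000511). Hoxa10, a homeobox factor of the uterine stroma, read 357 to 411 in the fragments against 1887 in the whole embryo (adjusted p = 0.000511). Its neighbour Hoxa11 was 2.40-fold higher, with 619 to 736 in the fragments against 2073 in the whole embryo (adjusted p = 0.00149). For both genes the fragments lay close together and far below the whole embryo. Alpl, the alkaline phosphatase long used as a stain for decidua, read 355 to 400.1 against 1505 (adjusted p = 0.000723), and the protease Adamts1 read 383 to 448 against 1630 (adjusted p = 0.000903). Igfbp4 was 4.38-fold higher, at 2232 to 3206 in the fragments against 13391 in the whole embryo (adjusted p = 0.00226).

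Some decidual genes with a clear signal in the whole embryo alone fell below the filter. Cebpb, a transcription factor of the stroma, read 277 to 319 in the fragments against 1536 in the whole embryo, and Hoxd10 read 136 to 167 against 1212. With no filter, limma gave an adjusted p of 0.00103 for each. Other members had no call. Wnt6, Ptgs2, Dcn, Nr2f2 and Fkbp5 had differences of 0.41, 0.24, 0.24, 0.03 and 0.03. Hand2, a progesterone-induced factor, read 77.6 to 134 in the fragments against 156 in the whole embryo, below the filter. Ptgis, prostacyclin synthase, was the member called lower, at 1232 to 1502 in the fragments against 872 in the whole embryo (difference -0.57, adjusted p = 0.0196). For desmin, Des, an intermediate filament of decidual and muscle cells, the probe sets disagreed. The brightest read 1101 to 1274 in the fragments and the whole embryo 1136 (-0.12, adjusted p = 0.428), while the other read 457 to 550.4 against 5953 (2.99, adjusted p = 0.00027).

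Receptors for steroid hormones gave different answers by probe set and chip. On MOE430A, Pgr, the progesterone receptor, read 395 to 707 in the fragments against 592 in the whole embryo, and Esr1, the oestrogen receptor, 809 to 898 and 816, neither with a call. On MOE430B, whose fragment arrays are other replicates, another Pgr probe set read 80.3 and 78.2 in Ad, 101 and 78.4 in Pp and 991 in the whole embryo (3.41, limma adjusted p = 0.0015). The Esr1 probe set there read 17.8 and 81.9 in Ad, 84.4 and 36.3 in Pp and 1999 in the whole embryo (adjusted p = 0.0129). On that chip all 4 fragments of each gene lay more than 2-fold below the whole embryo. Of 21 genes listed for steroid receptors and response, 18 were on MOE430A and 11 were kept. There 0 were called higher and 1 lower, Fkbp4 (6384 to 7120 against 5390, adjusted p = 0.0427), which lost its call without Ad replicate 1 or 2. The median was -0.06. Cyp11a1, which makes pregnenolone from cholesterol, read 236 to 284 in the fragments against 1609 in the whole embryo, below the filter, with an adjusted p of 0.00119 when no filter was applied.

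Of a prolactin-family list with 18 genes on the array, which also holds growth hormone and its receptor Ghr, 4 were near background in most fragments and bright in the whole embryo. Prl8a2, the decidual prolactin-related protein, read 254 and 564 in the Ad arrays, 241 and 267 in the Pp arrays and 6063 in the whole embryo (limma adjusted p = 0.00132). Prl6a1 read 394 and 881 in Ad, 379 and 388 in Pp and 3559 in the whole embryo (adjusted p = 0.00931). These were the 2 members called among 6 kept, 0 were called lower, and the median of the 6 was 0.23. Of the 6, Prl8a2 and Ghr had a fragment mean below the filter signal and passed through the whole embryo. With no filter, 6 of the 18 were called higher (4.79% of all genes) and the median was 0.0117. Prl3c1 read 94.5 and 812 in Ad, 96.9 and 86.9 in Pp and 4066 in the whole embryo, and Prl8a9 read 278 and 417 in Ad, 267 and 295 in Pp and 1624 in the whole embryo. Both fell below the filter, with adjusted p of 0.0458 and 0.00575 when no filter was applied. The second Ad array gave the highest fragment signal for all 4 genes, and the whole embryo lay above it each time. Prl5a1 and Prl7a1 also lay at least 2-fold above every fragment, at 42.0 to 56.2 against 224 and at 27.5 to 53.6 against 254, all below the filter signal. The placental members Prl4a1 and Prl7d1, made by trophoblast later in pregnancy, read 395 to 424 against 392 and 282 to 313 against 305. Prolactin-family genes are close paralogues, so a probe set can take signal from a relative, which was not tested. The family's summed signal was 5778 to 7385 in the fragments against 20818 in the whole embryo.

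The promoters of 3 of these 4 genes, Prl3c1, Prl6a1 and Prl8a9, were in the RefSeq-based promoter table (GRCm38.p6). They are shown because these genes had a like profile over the 5 arrays and lie on the same chromosome, 13. Each sequence is the 250 bases before the annotated start, read 5′ to 3′ on the gene's own strand. The Prl3c1 stretch is chr13:27196410-27196659 on the plus strand, that of Prl6a1 chr13:27312365-27312614 on the plus strand, and that of Prl8a9 chr13:27564607-27564856 on the minus strand. Capitals mark the word ATTCCCTG, the longest word all 3 share, and each TATATA.
Prl3c1: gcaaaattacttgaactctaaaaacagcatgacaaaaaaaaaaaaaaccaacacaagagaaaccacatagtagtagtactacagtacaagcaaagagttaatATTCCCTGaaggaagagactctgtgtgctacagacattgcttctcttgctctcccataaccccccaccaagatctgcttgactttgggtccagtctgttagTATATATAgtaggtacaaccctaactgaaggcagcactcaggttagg
Prl6a1: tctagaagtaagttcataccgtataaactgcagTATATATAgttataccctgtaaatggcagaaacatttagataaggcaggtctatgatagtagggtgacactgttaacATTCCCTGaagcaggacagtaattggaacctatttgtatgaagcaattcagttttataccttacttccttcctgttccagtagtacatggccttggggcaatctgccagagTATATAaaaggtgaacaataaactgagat
Prl8a9: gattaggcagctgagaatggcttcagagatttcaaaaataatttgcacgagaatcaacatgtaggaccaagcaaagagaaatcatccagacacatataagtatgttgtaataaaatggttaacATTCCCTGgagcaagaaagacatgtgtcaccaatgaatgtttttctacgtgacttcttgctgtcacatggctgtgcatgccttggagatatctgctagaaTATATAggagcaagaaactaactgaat
ATTCCCTG begins 148, 140 and 127 bases before the start in Prl3c1, Prl6a1 and Prl8a9, and the TATATA nearest the start begins 45, 29 and 27 bases before it. Both strands were searched, with overlapping matches counted once per promoter. ATTCCCTG occurs in 0.995% of 32851 promoters of the same length and in 6 of 24 prolactin-family promoters. Those 6 belong to 5 of 21 family genes, and the 5 include the 3 genes shown. TATATA occurs in 5.25% of all promoters and in 20 of the 24, and the related word TATAAA in 12.4% and in 4 of the 24. ATTCCCTG was found from these 3 sequences, so its presence in them is not evidence. The family share counts the same 3 genes, so it is not evidence of enrichment either. A match is a description of letters only.

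Genes of fibroblasts and extracellular matrix were higher alongside. Of 32 listed, 31 were on the array and 24 were kept, and 13 were called higher and 0 lower (5.7% and 4.54% of all genes), with a median of 0.69. Col1a1 and 4 other kept members had a fragment mean below the filter signal and passed through the whole embryo. With no filter, 13 of the 31 were called higher (4.79% of all genes), and the median was 0.38. Their summed signal was 25310 to 27728 in the fragments against 66824 in the whole embryo. Col1a1, a chain of fibrillar type I collagen, read 307 and 369 in Ad, 353 and 290.3 in Pp and 4360 in the whole embryo (limma adjusted p = 0.00027). Col3a1, of type III collagen, was 3.91-fold higher, at 326 to 650 in the fragments against 2910 in the whole embryo. Vim, the intermediate filament vimentin, was 3.22-fold higher (867 to 1340 against 4275, adjusted p = 0.00276). The matrix protease Mmp2 was 3.10-fold higher (960 to 1440 against 4535) and the collagen cross-linking enzyme Lox 3.15-fold (552 to 629 against 2560). Lgals1, galectin-1, read 2502, 2923 and 2659 in 3 fragments, 5219 in the second Pp array and 14838 in the whole embryo, a 4.16-fold difference (adjusted p = 0.0185). Leaving out Ad replicate 1 or 2 kept 10 of the 13 calls. Among the other members, Pdgfrb and Twist1, genes of pericytes and mesenchyme, were below the filter at 269.8 to 319 against 257 and at 208 to 240.0 against 225, and Tnc and Eln had differences of -0.15 and -0.04 with no call.

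Contractile genes of the smooth muscle list, some of them also made by stroma, were higher, and its members below the filter went different ways. In the smooth muscle list 6 of the 8 kept genes (13 on the array) were called higher and 0 lower (5.7% and 4.54% of all genes), with a median of 0.76. Acta2, smooth muscle actin, which stroma also makes, was 2.10-fold higher at 1978 to 2221 in the fragments against 4869 in the whole embryo (limma adjusted p = 0.00125). Tagln, transgelin, was 1.85-fold higher (852 to 915 against 1971). Cald1, caldesmon, was 3.64-fold higher, and its second Pp array, at 1018, stood above the other fragments at 414 to 577 (whole embryo 3076). The other kept Cald1 probe set had no call, at 758 to 872 in the fragments against 1116 in the whole embryo (0.27). Myh11 and Cnn1, markers of differentiated muscle of the uterine wall, were below the filter, at 176 to 235 against 170.5 and at 237 to 278 against 236. Of the 5 members below the filter, 1, neither Myh11 nor Cnn1, lay at least 2-fold above every fragment. With no filter, 7 of the 13 were called higher (4.79% of all genes) and the median was 0.64. Leaving out Ad replicate 1 or 2 kept 3 of the 6 calls. Summed over the list, the signal was 12618 to 13294 in the fragments against 25814 in the whole embryo.

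A few vessel genes were higher. Of 22 endothelial genes, 21 were on the array and 10 were kept, with 3 called higher and 0 lower (5.7% and 4.54% of all genes) and a median of 0.27. Esam, an adhesion molecule of endothelial junctions, was 2.02-fold higher (599 to 887 against 1958, limma adjusted p = 0.018), Sox18 1.44-fold (598 to 688 against 1108) and Aplnr 1.42-fold (404 to 591 against 864). All 3 calls were lost without Ad replicate 1 and without Ad replicate 2. Cdh5, the endothelial cadherin, was below the filter at 259.9, 308 and 262 in 3 fragments and 212 in the second Pp array, with 1356 in the whole embryo (adjusted p of 0.00188 with no filter). Cd34 read 312 to 365 against 713 and Plvap 334 to 410.5 against 888 (adjusted p of 0.0156 and 0.0107 with no filter). The whole embryo lay above every fragment in 19 of the 21 genes, against 37.3% of all genes on the array. Pecam1, Kdr and Eng, whose differences were 0.09, 0.33 and 0.17, had no call. Over the list the signal summed to 11638 to 13180.2 in the fragments against 19009 in the whole embryo.

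Genes of the uterine epithelium gave calls in both directions. Of 7 kept (15 on the array), Krt7 and Prss29 were called higher and Wfdc2 lower, beside 5.7% and 4.54% of all genes, with a median of 0.05. Prss29, a protease of uterine glands at implantation, read 495 to 537 in the fragments against 1180 in the whole embryo, 1.78-fold higher (limma adjusted p = 0.00284). Its partner Prss28 read 251 to 277 against 1375, below the filter, with an adjusted p of 0.00095 when no filter was applied. The other kept Prss29 probe set disagreed, at 550.1 to 672 in the fragments against 665 in the whole embryo (0.04, no call). Krt7, at 431 to 745 against 1134, is also a trophoblast keratin. Only the Prss29 call remained without Ad replicate 1 or without Ad replicate 2. Ltf, Lcn2, Ovgp1 and Lif, other genes of glands or uterine lining, were below the filter, at 349, 122, 484 and 471 in the whole embryo. The list's summed signal was 9469 to 9979 in the fragments against 11611 in the whole embryo.

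Haemoglobin and other erythroid genes gave no call. Of 10 on the array 5 were kept, limma called 0 in either direction, 0 had an unadjusted p under 0.05, and the median was -0.06. The summed signal was 4853 to 5197 in the fragments against 5086 in the whole embryo. Hba-a1, adult alpha globin of the mother's blood, read 334 to 389 in the fragments against 320.5 in the whole embryo. Leukocyte genes gave 1 call higher and 0 lower among 15 kept of 32 on the array, a share near the 5.7% of all genes called higher. Their median was 0.04 and the summed signals were 18047 to 19592 and 21813. The whole embryo lay above every fragment in 20 of the 32 and below every fragment in 4. Over all genes on the array these shares were 37.3% and 20.9%. The gene called was Csf1r, the macrophage growth factor receptor, which trophoblast and decidua also make (2513 to 2824 against 3696, 1.27-fold, limma adjusted p = 0.0458). Its call was lost without Ad replicate 1 or 2, and its other probe set had a difference of -0.16 with no call. Ptprc, the pan-leukocyte antigen CD45, read 167 to 194 against 223. The natural killer cell genes Gzma and Prf1 read 665 to 776 against 703 and 233 to 247 against 210.5. Of the class I antigen presentation genes, B2m, beta-2 microglobulin, was called higher (1027 to 1238 against 2128, 1.64-fold, adjusted p = 0.0132) and was the single call among 10 kept genes, with 0 lower and a median of 0.05. That call was lost without either Ad array, and H2-K1, a heavy chain, read 1894 to 2656 in the fragments against 2594 in the whole embryo.

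Calls of 0 in a list rest on the adjusted threshold. At an unadjusted p under 0.05 from limma, 0 kept genes were lower in the whole embryo in the lists for extraembryonic ectoderm, ectoplacental cone, matrix, smooth muscle, endothelium and leukocytes, and 1 was lower in the parietal endoderm list. In the epiblast list 16 were lower and 0 higher at that threshold.

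**Figure D2:**
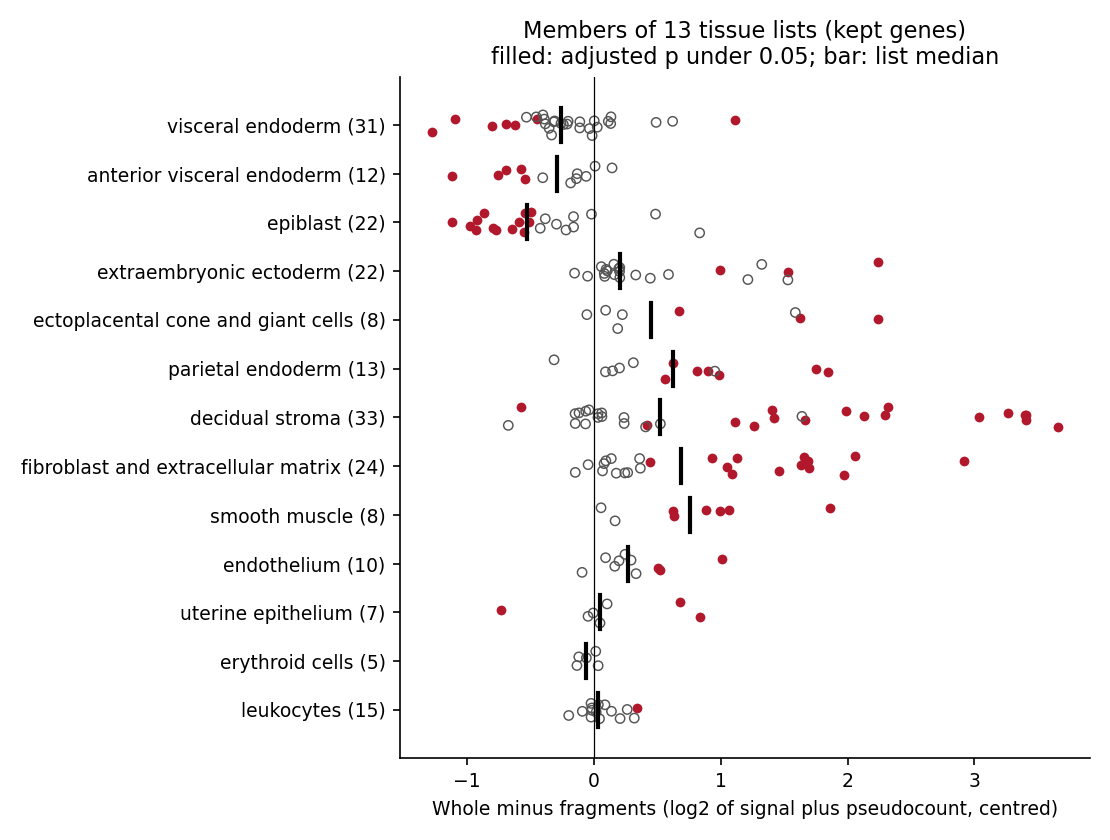
Difference between whole embryo and fragments (log2 of signal plus pseudocount, centred) for the kept genes of 13 tissue lists, 1 point a gene, with the number kept in brackets. Filled points have a limma adjusted p under 0.05 and black bars are list medians. Decidual stroma reaches 3.66 and matrix genes 2.92, epiblast lies mostly left of 0 with a median of -0.53, and erythroid genes and leukocytes lie around 0.

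Some trophoblast genes were also higher in the whole embryo, and for several of them the fragments were not alike. Of 27 extraembryonic ectoderm genes, 25 were on the array and 22 were kept, with 3 called higher and 0 lower (5.7% and 4.54% of all genes) and a median of 0.20. The whole embryo lay above every fragment in 16 of the 25, against 37.3% of all genes on the array. The list's signal summed to 34815 and 33557 in Ad, 29191 and 42167 in Pp and 51438 in the whole embryo. Hand1, a transcription factor needed for giant cells, read 477 and 435 in Ad, 471 and 1248 in Pp and 4014 in the whole embryo, 4.72-fold higher (limma adjusted p = 0.0201). Ets2, needed for trophoblast growth, read 535 and 659 in Ad, 568 and 972 in Pp and 1687 in the whole embryo, 2.0-fold higher (adjusted p = 0.0464). In both genes the second Pp array stood above the other fragments and below the whole embryo. Gata2, made by trophoblast and by uterine cells, read 871 to 951 in all 4 fragments and 3298 in the whole embryo, 2.90-fold higher (adjusted p = 0.000564). The Gata2 call alone remained without Ad replicate 1 or 2.

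Several genes that define the extraembryonic ectoderm differed widely between the Pp arrays and had no call. Elf5, a transcription factor that marks its stem cells, read 340.2 and 296 in Ad, 601 and 2432 in Pp and 2194 in the whole embryo (1.32, limma adjusted p = 0.193). Bmp4, the signal this tissue sends to the epiblast, read 744 and 605 in Ad, 573 and 2359 in Pp and 1595 in the whole embryo (0.59, adjusted p = 0.542). Id2, a target of such signals, read 264 and 225 in Ad, 1020 and 2781 in Pp and 2159 in the whole embryo (1.21, adjusted p = 0.137). For these 3 genes the second Pp array lay above the whole embryo. Plet1, a surface protein of trophoblast progenitors, read 386 and 367 in Ad, 368 and 1421 in Pp and 2179 in the whole embryo (1.53, adjusted p = 0.11). Without Pp replicate 2, 13 of the 22 genes were called higher, against 11.3% of all probe sets in that fit, and Elf5, Bmp4, Id2 and Plet1 were among them with differences of 1.74, 1.01, 1.53 and 1.89. Without Pp replicate 1 the count was 8 of 22, against 9.77% of all probe sets. Elf5, Id2 and Plet1 were among these too, with differences of 0.90, 0.89 and 1.16, and Bmp4 had no call (0.17). None of the 4 was called without Ad replicate 1 or 2. The differences of Elf5, Bmp4, Id2 and Plet1 were 1.35, 0.64, 1.24 and 1.54 without Ad replicate 1. Without Ad replicate 2 they were 1.30, 0.54, 1.19 and 1.52. In those fits the spread comes from the unlike Pp arrays alone. The second Pp array was the highest fragment for 17 of the 25 genes on the array (68%), against 18.7% of all genes. The same array was the highest for 66.7% of the class I antigen presentation genes, 53.6% of the immediate early and stress genes and 42.4% of the visceral endoderm genes. Cdx2 and Eomes, also genes of the trophoblast stem state, read 1074 to 1784 against 1821 and 3379 to 4001 against 4080 and had no call. Tfap2c had disagreeing probe sets. Its brightest read 1052 to 1295 in the fragments against 1239 in the whole embryo (-0.05), and another read 226, 309, 935 and 2955 against 4455 (2.15, adjusted p = 0.0489).

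The ectoplacental cone and giant cell list gave a similar picture with fewer genes expressed. Of 21 on the array 8 were kept, with 3 called higher and 0 lower (5.7% and 4.54% of all genes) and a median of 0.45. The list's signal summed to 21573 and 20260.3 in Ad, 19781 and 28184 in Pp and 37616 in the whole embryo. Besides Hand1, which stands in both lists, the genes called were Phlda2, an imprinted placental growth regulator, and Plac1. Phlda2 read 1342 and 1371 in Ad, 1760 and 2919 in Pp and 6298 in the whole embryo, 3.08-fold higher (limma adjusted p = 0.0152). Plac1 read 2120 to 2207 in the fragments, with the second Pp array at 2206, and 3830 in the whole embryo, 1.59-fold higher (adjusted p = 0.00676). All 3 calls were lost without Ad replicate 1 and without Ad replicate 2. Gjb5, a connexin of trophoblast, read 491 and 466 in Ad, 454 and 1593 in Pp and 2639 in the whole embryo (1.59, adjusted p = 0.0925), and was called without either Pp array, with differences of 1.23 without replicate 1 (4 of the 8 called) and 1.93 without replicate 2 (5 of the 8). Tpbpa, which marks spongiotrophoblast, read 283 to 432 against 406, and the placental cathepsins Ctsj, Ctsm and Ctsq were below the filter at 70.0, 131 and 240.1 in the whole embryo. Of the 13 members below the filter, 2 lay at least 2-fold above every fragment. With no filter, 5 of the 21 were called higher (4.79% of all genes) and the median was 0.0569. Ascl2, a factor of the ectoplacental cone, read 992 to 1062 against 1301 with no call (0.19, adjusted p = 0.177).

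Matrix genes of the parietal endoderm list were higher, and Sox7 and Pth1r, among its more restricted markers, had no call. All 18 listed genes were on the array, 13 were kept, and 7 were called higher and 0 lower (5.7% and 4.54% of all genes), with a median of 0.62 and summed signals of 18616 to 25634 in the fragments against 41596 in the whole embryo. Of the kept members, 1 had a fragment mean below the filter signal and passed through the whole embryo. Of the 5 below the filter, 2 lay at least 2-fold above every fragment. With no filter, 10 of the 18 were called higher (4.79% of all genes) and the median was 0.64. Lamc1, a laminin chain, read 1762 and 1832 in Ad, 1122 and 938 in Pp and 3128 in the whole embryo, 1.98-fold higher (limma adjusted p = 0.00438). The type IV collagen genes Col4a1 and Col4a2 were 1.54-fold and 1.76-fold higher (2985 to 4343 against 6144, and 1291 to 2255 against 3341). Serpinh1, a collagen chaperone, was 1.87-fold higher (2613 to 2960 against 5791, adjusted p = 0.00269), and Sparc 1.48-fold (1963 to 2700 against 3759). Pdgfra, a growth factor receptor, read 402 to 647 in the fragments against 2745 in the whole embryo, 3.59-fold higher (adjusted p = 0.000957). Krt19, a keratin that trophoblast also makes, was 3.37-fold higher, with 464 in the first Pp array, 960 to 1034 in the other fragments and 3615 in the whole embryo. Stromal and muscle cells also make these laminin and collagen chains, Serpinh1, Sparc and Pdgfra.

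Some genes often used to tell parietal from visceral endoderm, namely Thbd, Plat, Sox7 and Pth1r, were close to the fragments. The 2 members below the filter that lay at least 2-fold above every fragment were not among these 4. Thbd, thrombomodulin, read 304 to 342 in the fragments against 359 in the whole embryo, and Plat, tissue plasminogen activator, 341 to 432 and 439.8, both below the filter. Sox7 read 924 to 1123 against 1261 (0.15, limma adjusted p = 0.357) and Pth1r, the receptor for parathyroid hormone-related protein, 640.4 to 982 against 1136 (0.31, adjusted p = 0.307). For all 4 genes the whole embryo lay above every fragment, with ratios to the highest fragment of 1.02 to 1.16. Nid2, a basement membrane linker, read 833 to 1162 against 819 (-0.31, adjusted p = 0.103). Without Ad replicate 1, 4 of the 7 calls remained, and without Ad replicate 2, 3 remained. Taking all fragments as 1 group left 3. The whole embryo stood above every fragment for 17 of the 18 genes, against 37.3% of all genes on the array.

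**Figure D3:**
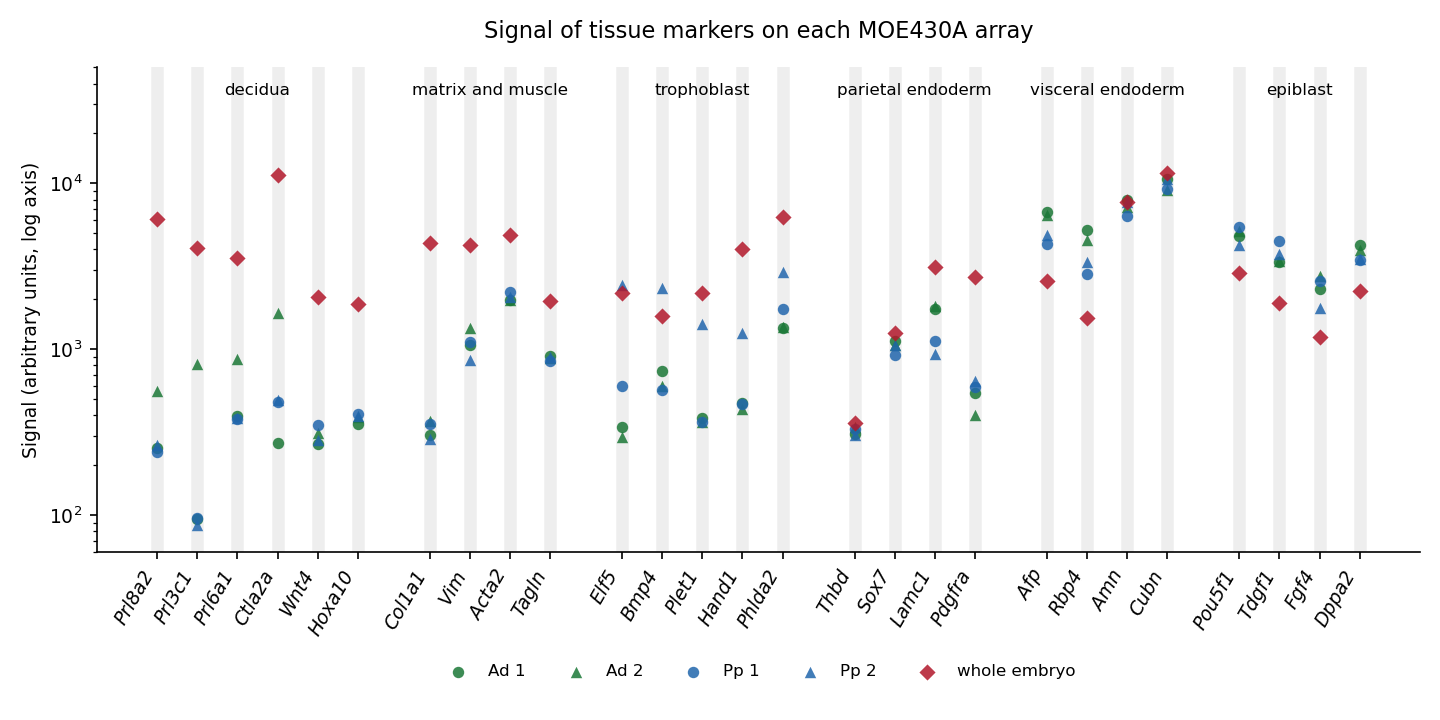
Signal of 27 marker genes on each MOE430A array (vertical, log axis), with Ad in green, Pp in blue (circles replicate 1, triangles replicate 2) and the whole embryo as red diamonds. Decidual and matrix genes separate the whole embryo from all fragments, Elf5 and Bmp4 are as high or higher in the second Pp array, Thbd and Sox7 barely move, and epiblast genes are lowest in the whole embryo.

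Epiblast genes were lower in the whole embryo. In the main fit the epiblast and decidual stroma medians were -0.53 and 0.52, and the largest differences were -1.12 and 3.66. The like size of the medians did not hold in other fits. With any 1 fragment array left out, the epiblast median was -0.50 to -0.56 and the decidual median 0.82 to 1.13. Of 26 listed, 24 were on the array and 22 were kept, with 13 called lower and 0 higher (4.54% and 5.7% of all genes) and a median of -0.53. The whole embryo lay below every fragment for 19 of the 24, against 20.9% of all genes on the array. The summed signal was 86269 to 94665 in the fragments against 68280 in the whole embryo. Pou5f1, the pluripotency factor Oct4, read 4822 and 5154 in Ad, 5446 and 4278 in Pp and 2896 in the whole embryo, 1.73-fold higher in the fragments (difference -0.79, limma adjusted p = 0.0221). Tdgf1, the Nodal co-receptor Cripto, was 1.97-fold higher in the fragments (3383 to 4509 against 1892, adjusted p = 0.0056). Fgf4, the growth factor the epiblast sends to trophoblast, was 1.90-fold higher (1777 to 2751 against 1185, adjusted p = 0.0372). Dppa2 was 1.71-fold higher in the fragments (3477 to 4277 against 2252, adjusted p = 0.00438), and Phc1, a Polycomb protein, 1.82-fold (4142 to 6068 against 2946, adjusted p = 0.0289). The fragments and the whole embryo did not overlap for any of these 5 genes. Nodal, Dnmt3b and Cdh1 had differences of -0.42, -0.29 and -0.02 with no call. Zfp42 and Trap1a were the 2 kept members with a higher signal in the whole embryo (0.49 and 0.83, no call), and both are also made in extraembryonic tissue. Trap1a read 1307 and 3644 in the Pp arrays and 4426 in the whole embryo. Nanog and Sox2 were below the filter, at 197 to 628 against 233 and at 427 to 474 against 275. Without Ad replicate 1, 2 of the 13 calls remained, and without Ad replicate 2, 1 remained.

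Several secreted products of the visceral endoderm were lower, and its uptake receptors had no call. Of 37 listed, 33 were on the array and 31 were kept, with 6 called lower and 1 higher (4.54% and 5.7% of all genes) and a median of -0.26. The summed signal was 140360 to 173059 in the fragments against 142641 in the whole embryo. Afp, alpha-fetoprotein, read 6690 and 6410 in Ad, 4333 and 4888 in Pp and 2596 in the whole embryo, 2.13-fold higher in the fragments (difference -1.09, limma adjusted p = 0.00248). Rbp4, which carries retinol, read 5237 and 4550 in Ad, 2833 and 3373 in Pp and 1556 in the whole embryo, 2.43-fold higher in the fragments (adjusted p = 0.00385). Apoa1, the main protein of high density lipoprotein, was 1.74-fold higher in the fragments (adjusted p = 0.0373). The fibrinogen genes Fgb and Fgg and the transcription factor Foxa2 were the other members called lower, with differences of -0.45, -0.62 and -0.69. In Foxa2 the Ad arrays read 2304 and 1945, the Pp arrays 838 and 751 and the whole embryo 782, and the whole embryo lay within the Pp range. Ttr, Apoe and Apob had differences of -0.24, -0.39 and -0.40 with no call.

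The endocytic receptor complex of this layer gave no call. Amn read 6367 to 7906 in the fragments against 7712 in the whole embryo, Cubn 9075 to 10636 and 11479.9, Lrp2 2032 to 2543 and 2712, and the adaptor Dab2 8919 to 9918 and 10863. Their differences were 0.00, 0.13, 0.11 and 0.14. Sox17 and Cited1 were above every fragment, at 919 to 2252 against 2593 (0.62, limma adjusted p = 0.0762) and 1465 to 2640 against 2883 (0.49, adjusted p = 0.173), with the second Pp array the highest fragment in both. The 1 member called higher was Tdo2, tryptophan dioxygenase, at 739 to 806 in the fragments against 2098 in the whole embryo, 2.16-fold higher (adjusted p = 0.00112). Tdo2 is also a decidual gene and stands in that list too. On MOE430B its probe set read 21.3 to 86.3 in the fragments and reached 1751 in the whole embryo (adjusted p = 0.0062). Of the 7 calls in the visceral endoderm list, 3 remained without Ad replicate 1 or without Ad replicate 2.

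On MOE430A, anterior visceral endoderm genes as a list placed the whole embryo next to the Pp fragments. All 13 listed genes were on the array and 12 were kept, with 5 called lower and 0 higher (4.54% and 5.7% of all genes) and a median of -0.29. Against Ad alone 7 were lower and 0 higher with a median of -0.77 (3.87% of all genes were lower than Ad), and against Pp alone limma called 0, with 1 higher and 1 lower at an unadjusted p under 0.05 and a median of 0.08. Lefty1, a secreted Nodal inhibitor, read 6489 and 4658 in Ad, 912 and 987 in Pp and 1398 in the whole embryo. Lhx1 read 2338 and 2266 in Ad, 757 and 675 in Pp and 776 in the whole embryo, and Hesx1 1522 and 1834, 406 and 409, and 569. In all 3 the Ad arrays carried the high values, and the whole embryo lay between Pp and Ad, nearer to Pp. Cer1, whose promoter drives the fluorescent reporter, read 1532 and 1413 in Ad, 899 and 861 in Pp and 1049 in the whole embryo on its brightest probe set. Its other probe set read 3681 and 3670.3 in Ad, 283 and 288 in Pp and 742 in the whole embryo (-0.63, limma adjusted p = 0.00755). Otx2, in this list and the epiblast list, read 2454 and 2732 in Ad, 1532 and 902 in Pp and 732 in the whole embryo, 2.17-fold higher in the fragments (adjusted p = 0.0354). Without Ad replicate 1, 0 of the 5 calls remained, and without Ad replicate 2, 1 remained. The summed signal was 41833 and 36112 in Ad, 19278 and 19433 in Pp and 22957 in the whole embryo.

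The 15 genes with the largest decrease were Rbp4, Igfbp2, Rbpms, Otx2, Afp, Cyct, Eras, Car14, Tdgf1, Cbr3, Gstt1, Fgf4, Sbk1, Slc7a3 and Ubxn8. Igfbp2, a growth factor binding protein, read 6881 and 7085 in Ad, 5814 and 5138 in Pp and 2826 in the whole embryo, 2.21-fold higher in the fragments (limma adjusted p = 0.00183). Rbpms, an RNA-binding protein, was 2.17-fold higher (3274 to 4012 against 1665, adjusted p = 0.00117), and Eras, a constitutively active Ras of pluripotent cells, 2.03-fold (3292 to 5462 against 2171, adjusted p = 0.00508). Slc7a3, a cationic amino acid transporter, was 1.89-fold higher (4459 to 6436 against 3019, adjusted p = 0.0199). In these 4 genes every fragment lay above the whole embryo. Fewer calls of the group were kept than of the 15 largest increases. The decreases were smaller, -0.91 to -1.28 against 2.32 to 3.66. Both groups were picked by size in these data, and every setting used the same whole-embryo array. The kept calls therefore do not compare the reliability of the 2 groups. Without Ad replicate 1, 7 of the 15 remained, without Ad replicate 2, 6 remained, and 8 of the 15 kept the call under all settings other than leaving out an array.

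Other gene groups were read in the same way. Of the 5' Hox genes, expressed in the uterus and in posterior tissues of later embryos, 5 of 13 on the array were kept and 4 were called higher and 0 lower (5.7% and 4.54% of all genes), with a median of 0.83. Of these 5, Hoxa10 had a fragment mean below the filter signal. With no filter, 5 of the 13 were called higher (4.79% of all genes) and the median was 0.0953. Besides Hoxa10 and Hoxa11, Hoxd9 was 1.77-fold higher (633 to 745 against 1489, limma adjusted p = 0.00383) and Hoxa9 1.29-fold (1587 to 1748 against 2362, adjusted p = 0.0383). The Hoxa9 call was lost without Ad replicate 1 or 2. Hoxa13, Hoxd13 and Hoxb13, the most posterior members, were below the filter at 332, 168 and 126 in the whole embryo. Among S100 proteins and annexins, which bind calcium and membranes, 7 of 14 kept genes (22 on the array) were called higher and 0 lower (5.7% and 4.54% of all genes), with a median of 0.53. Of the 14, S100a6 and Anxa3 had a fragment mean below the filter signal. With no filter, 8 of the 22 were called higher (4.79% of all genes) and the median was 0.27. Anxa1 was 4.53-fold higher (506 to 578 against 3529, adjusted p = 0.00027), Anxa2 3.49-fold (886 to 1267 against 4312) and S100a10 1.66-fold (5120 to 8147 against 11721). Anxa5 read 1010, 1061 and 958 in 3 fragments, 2594 in the second Pp array and 5702 in the whole embryo (3.65-fold, adjusted p = 0.0475). Of the 7 calls, 4 remained without Ad replicate 1 or 2.

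Genes that respond to handling or low oxygen and genes of the cell cycle had calls in both directions, beside 5.7% of all genes called higher and 4.54% lower. Of 18 kept immediate early and stress genes (28 on the array), 3 were called higher and 1 lower, with a median of 0.11. Ier3 was 2.45-fold higher (671 to 1133 against 2564, limma adjusted p = 0.0196), Zfp36 1.56-fold and Klf6 1.33-fold, and Ier2 was 1.39-fold higher in the fragments. Fos read 243 to 264 in 3 fragments, 459.7 in the second Pp array and 1619 in the whole embryo, below the filter, with an adjusted p of 0.0106 when no filter was applied. None of these 4 calls remained without Ad replicate 1 or without Ad replicate 2. Of 17 kept hypoxia genes (20 on the array), P4ha2 and Ero1a were called higher, Egln3 and Pdk1 lower, and the median was 0.05. P4ha2, a collagen prolyl hydroxylase, was 2.65-fold higher (570.4 to 741 against 2227, adjusted p = 0.00248). Of the 4 calls, that of P4ha2 alone remained without Ad replicate 1 or 2. Of 25 kept cell cycle genes (27 on the array), Mki67, Rrm2 and Cdkn1c were called higher and Ccne1 lower, with a median of -0.08. Cdkn1c, an imprinted cell cycle inhibitor made by decidua and trophoblast, was 2.62-fold higher (673 to 1035 against 2680, adjusted p = 0.00476). Of the 4 calls, that of Cdkn1c alone remained without Ad replicate 1 or 2. Of 20 ribosomal protein genes on the array all were kept, limma called 0 in either direction, 2 were lower and 0 higher at an unadjusted p under 0.05, and the median was -0.06.

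The level of decidual and trophoblast genes within each fragment was then set against the whole embryo for 20 decidual and stromal genes and 11 trophoblast genes. They were chosen after their values were seen, so these are descriptions without a test. For Prl3c1, the second Ad array held 19.97% of the whole-embryo signal and the other fragments 2.14% to 2.38%. For Ctla2a it held 14.7% against 2.45% to 4.44%, for Tac2 11.8% against 3.21% to 6.75% and for Prl8a2 9.30% against 3.97% to 4.40%. The second Ad array was the highest fragment for 13 of the 20 genes. Over the whole decidual list it was the highest for 15 of 37 genes (40.5%), against 23.3% of all genes on the array. This share was not particular to decidua, since the array was also the highest for 50% of ribosomal protein, 44.4% of parietal endoderm, 41.9% of matrix and 41.7% of epiblast genes. For other decidual and stromal genes the fragments lay closer together, though the second Ad array was still the highest for Hoxd10 and Col1a1. Hoxa10 read 18.9% to 21.8% of the whole embryo in every fragment, Hoxd10 11.2% to 13.7% and Col1a1 6.66% to 8.46%, where the fragment signal is near background. For the 11 trophoblast genes, a choice that favours this pattern, the second Pp array was the highest each time. Over the whole ectoplacental cone list it was the highest for 11 of 21 genes, and the first Ad array for 8. It held 148% of the whole-embryo signal for Bmp4, 129% for Id2, 111% for Elf5, 65.2% for Plet1, 60.3% for Gjb5 and 31.1% for Hand1. The other fragments held 10.8% to 11.9% for Hand1. Htra1, a protease of the decidual stroma list, also had its highest fragment signal in the second Pp array, at 88.4% of the whole embryo against 13.4% to 17.5% in the others. For Cdx2 and Eomes all fragments held 59.0% or more.

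**Figure D4:**
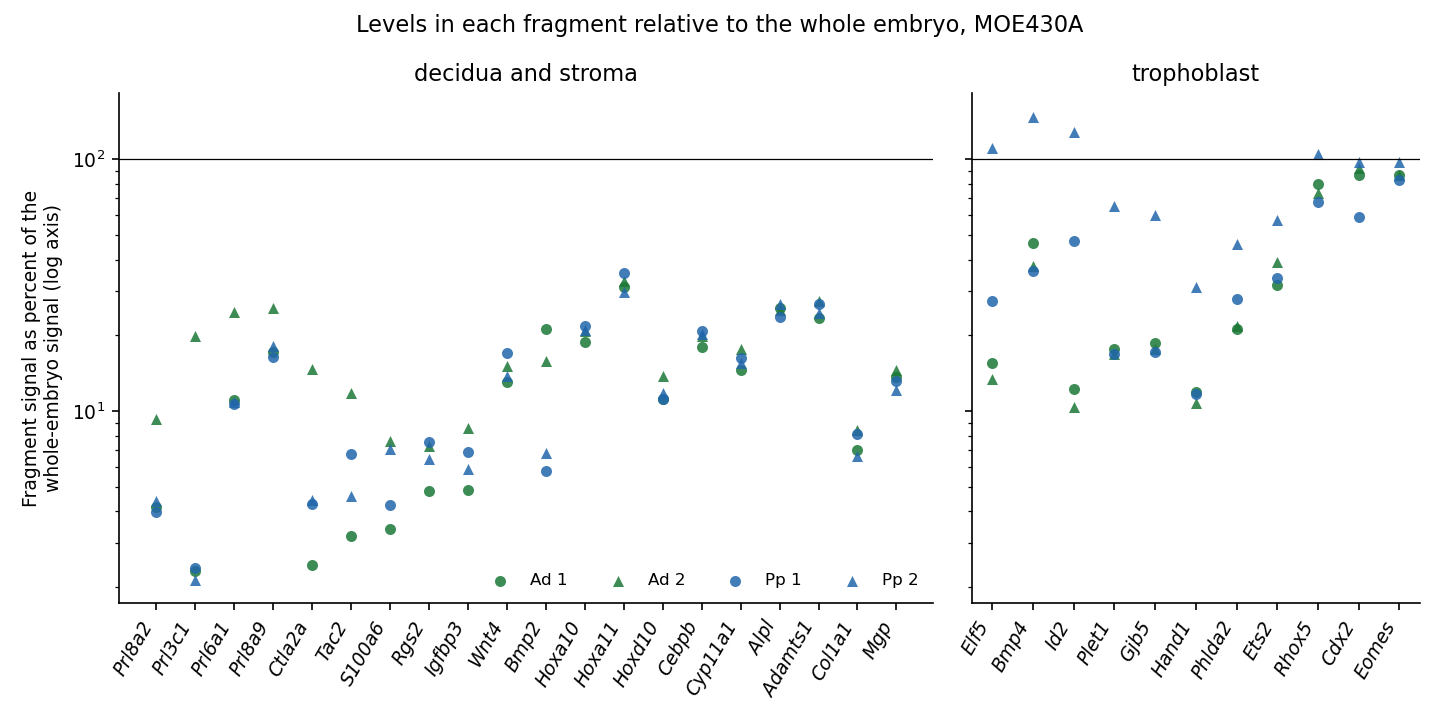
Signal of each fragment array as a percent of the whole-embryo signal (vertical, log axis) for 20 decidual and stromal genes (left) and 11 trophoblast genes (right), both chosen after their values were seen, with Ad in green, Pp in blue, circles for replicate 1 and triangles for replicate 2. The line marks the whole-embryo level. Triangles in green stand above the other fragments for Prl8a2, Prl3c1, Ctla2a and Tac2, and triangles in blue are the highest fragment for each of the 11 trophoblast genes shown.

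The MOE430B chip covered other genes and some of the same ones with other probe sets, other fragment replicates and another whole-embryo array. The labels do not say whether both whole-embryo arrays carried the same RNA. There 179 of 6921 genes were called higher in the whole embryo (2.59%) and 32 lower (0.462%). Of the genes called higher on MOE430A, 107 were also kept on MOE430B, where 14 were called higher and 0 lower, and the median was 0.17. Of those called lower, 71 were kept, with 3 called lower and 0 higher and a median of -0.21. Of the 1881 genes with no call on MOE430A and kept on MOE430B, 43 were called higher and 11 lower, with a median of -0.03. Rgs2 read 89.3 and 143 in Ad, 111 and 79.9 in Pp and 2422 in the whole embryo there (limma adjusted p = 0.00163). Igfbp3 read 89.4 and 154 in Ad, 165 and 132 in Pp and 2071 in the whole embryo (adjusted p = 0.00195), and Pdgfra 32.9 to 41.2 against 257 (adjusted p = 0.00163). Utf1, an epiblast gene, read 324 to 471 in the fragments against 103 in the whole embryo (adjusted p = 0.00588), after 5721 to 6194 and 4372 on MOE430A (adjusted p = 0.0203). Rgs2, Igfbp3, Pdgfra and Utf1 had the same direction on both chips. Of the 107 genes called higher on MOE430A, 72 were positive and 35 negative on MOE430B. Of the 71 called lower, 15 were positive and 56 negative, and of the 1881 with no call, 872 and 1009. Cald1, called higher on MOE430A, had a difference of -0.14 on MOE430B with no call. Spry4 of the extraembryonic ectoderm list was called lower there (-1.84). Sfrp5, an anterior visceral endoderm gene, was called higher (1.10), at 582 to 1009 against 1588. Plet1 on MOE430B read 127 and 121 in Ad, 115 and 289.8 in Pp and 343 in the whole embryo, with no call (adjusted p = 0.238), and the higher Pp array again stood above the other fragments.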

How the data were processed

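Affymetrix MOE430A arrays of 2 Ad fragments, 2 Pp fragments and 1 whole embryo were analysed, with the 5 MOE430B arrays used for the same genes on other probe sets. Per the submitters' processing notes the deposited intensity of each probe set, which is linear, came from MAS5. The version of that program, its target and its floor were not given in the sources used here. MAS5 scales each array to a common level, so a tissue that adds many transcripts lowers the share of all others. Array values carry no counts, and the number of arrays limits the precision.

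The 64 control probe sets were left out. The pseudocount was the 20th percentile of all values (247 on MOE430A, 10.5 on MOE430B), and the filter was a mean log2 value above the 40th percentile (signal 464 and 37.2). Arrays were centred on their median over kept probe sets, which moved the whole embryo by 0.08 relative to the fragments. The 3 group means were fitted with lmFit and eBayes of limma 3.58.1 in R 4.3.3 (2 residual degrees of freedom, prior degrees of freedom 3.85). Tables and figures were made with Python 3.11.15, pandas 2.3.3 and matplotlib 3.10.9. All tests were two-sided. The procedure was tested on simulated data with known changes. A gene with either group mean under the filter signal gets levels and no fold, and the pseudocount understates the folds of the others.

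Of 22690 probe sets, 20393 had exactly 1 gene symbol in the platform annotation, 691 had several and 1606 had none, and 20364 matched RefSeq gene names of GRCm38.p6. A gene was read from its brightest probe set. Of 112 named genes with more than 1 kept probe set, 54 had probe sets that disagreed in call or sign. Besides those given above, Fgf4, Lhx1, Klf6, Egln3, Pdk1, Fkbp4, Dnmt3b, Igfbp4, Gja1 and Ero1a each had another probe set with a different call. The genes named are the 15 with the largest called difference each way and members of 13 tissue lists and 9 other lists (504 genes). The comparison and lists were chosen with earlier results of these data known. The alternatives tried were other scalings, pseudocounts, filters, variance models and designs, and leaving out each fragment array.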

Additional observations from a re-analysis of the deposited data

Results flagged for a closer look

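Among 44 sets of 4 fragment values examined (named genes and summed lists), 3 had an extreme value far from the other fragments, where chance flags about 1 in 20. Ctla2a stood at 1646 in the second Ad array, against 275 to 497 in the other fragments. Prl8a2 stood at 564 in the same array, against 241 to 267 in the others. The summed signal of the uterine epithelium list was lowest in the first Pp array, at 9469, against 9911 to 9979 in the others. The cause of these values was not tested.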

How the results depend on the processing

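Of the calls, 0 reversed under any setting run. Calls higher and lower numbered 704 and 624, or 53.0% higher; the share was 74.1% with no centring, 69.8% with cyclic loess, 66.4% with no filter and 73.6% with the replicate number as a block. The replicate block gave 445 calls higher and 160 lower. Replicate 1 minus 2 correlated at -0.24 between Ad and Pp. With 2 arrays of each kind, this cannot show whether same-numbered fragments came from the same embryo, and the labels do not say. With crossed numbers, added after seeing the data, the counts were 895 and 939. Calls lower numbered 338 with no centring, 343 with cyclic loess and 374 with the fragments as 1 group. Leaving out a fragment array gave 243 to 1530 calls higher and 31 to 1962 lower, with the fewest without Ad replicate 1 (261 and 41) or Ad replicate 2 (243 and 31) and the most without Pp replicate 1 (1326 and 1769) or Pp replicate 2 (1530 and 1962). List medians moved as follows. Decidual stroma reached 0.98 with the pseudocount at the 40th percentile, 1.13 with no filter and 1.11 with the mean of all probe sets, and its calls higher fell to 7 with the filter at the 60th percentile, which tests fewer genes. Matrix moved to 0.38 with no filter and 1.08 with the stricter filter, and ectoplacental cone to 0.0569 with no filter. With no centring and with cyclic loess, epiblast stood at -0.45 and -0.47, smooth muscle at 0.84 and 0.81, endothelium at 0.35 and 0.32, erythroid cells at 0.0213 and -0.0146 and leukocytes at 0.12 and 0.0803, and uterine epithelium at 0.13 with no centring. The erythroid median thus changed sign with no centring, and it was -0.10 with the stricter filter. Smooth muscle was at 0.87 with no pseudocount, 0.69 with the larger one, 0.64 with no filter, 0.91 with the stricter filter and 0.63 with the mean of probe sets, and endothelium at 0.22 with that mean. Parietal endoderm had 3 calls with the fragments as 1 group. Over the arrays left out, calls ranged from 1 to 13 in extraembryonic ectoderm, 3 to 10 in parietal endoderm and 1 to 16 (lower) in epiblast, and medians from 0.82 to 1.13 in decidual stroma, 0.46 to 1.001 in matrix and 0.30 to 0.35 in endothelium. In the fits that left out an array, the spread came from the pair of the other kind alone, so their calls depend on that pair. Beyond that, the cause of these shifts was not tested. Signal over background limits genes that the fragments hardly express, and 1 whole-embryo array gives no spread of its own.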
